A study of Mus musculus with 8 samples.

Results

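The 38 genes described here make the proteins that copy DNA in S phase, from the loading of the replicative helicase to the supply of nucleotides and the packaging of new DNA. They were taken by symbol from a list of DNA replication and S phase genes. The list was chosen with earlier results of these data known. All 38 were found among the 25124 genes of the deposited tables. Their RNA levels were read by sequencing from 8 libraries of mouse splenic CD4 T cells. The mice were dual reporters, with GFP for KLF2 and RFP for FOXP3. The sorted cells were CD44hi (a mark of antigen-experienced T cells) and negative for FOXP3, the factor that defines regulatory T cells, so both features were shared by every group. They were separated into KLF2+ cells and KLF2- cells, KLF2 being a transcription factor of resting, recirculating T cells. Each population was kept for 48 h either unstimulated or with antibodies to CD3 (2.5 micrograms/mL) and CD28 (1.25 micrograms/mL), which trigger the antigen receptor and its main costimulator. There were 4 groups of 2 libraries each, with KLF2+ libraries numbered 1 and 2 and KLF2- libraries numbered 3 and 4. The age, sex and number of the mice, and whether the replicates were separate animals or cultures, are not given in the sources used here. The p-values therefore rest on the spread among these libraries, which may be technical.

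Before S phase, the origin recognition complex, CDC6 and CDT1 load the ring of MCM2 to MCM7 onto DNA, a step called licensing that geminin holds to once per cycle by binding CDT1. CDC45 and the GINS complex then join the ring to form the active helicase, primase and DNA polymerase alpha start new strands, and polymerases delta and epsilon extend them on the sliding clamp PCNA. Resting T cells hold little of this machinery and build it after antigen receptor stimulation, before their first division. Many of its genes are known targets of E2F transcription factors, which are held in check by the retinoblastoma family until the cell is committed to the cycle.

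Binding sites for E2F and NF-Y are the best known shared features of the promoters of such genes. Promoter sequences are shown for Cdc6, Rrm2 and Chaf1a, which had large responses described further on. They are also shown for Rpa1, which had the smallest, and for Mcm6, which lay between. They come from RefSeq (assembly GRCm38.p6), which matched 31 of the 38 members in windows from 250 bases before to 50 bases after the start of transcription; Gins1, Gins2, Gmnn, Mcm4, Pole, Prim2 and Rfc2 had no entry. Capitals mark E2F words (TTTGGCG or TTTCGCG or TTTCCCG or TTTGCCG, on either strand) and the NF-Y word CCAAT, on either strand. Mcm6, a helicase subunit, is on the minus strand at chr1:128359706-128359855. Chaf1a, of the histone chaperone CAF-1, is on the plus strand at chr17:56040266-56040415, and Cdc6, the helicase loader, is on the plus strand at chr11:98908001-98908150. Rrm2, the small subunit of ribonucleotide reductase, is on the plus strand at chr12:24708104-24708253. For these genes the 150 bases before the start are given, and for Rpa1, the large subunit of the single-strand binding protein RPA, the 250 bases before it (minus strand, chr11:75348384-75348633). The start is that of the RefSeq promoter entry. For Cdc6 the transcript used in the deposited counts (NR_156128) begins upstream, at position 98907801, so that the stretch lies 200 to 349 bases inside its counted gene model.
Mcm6: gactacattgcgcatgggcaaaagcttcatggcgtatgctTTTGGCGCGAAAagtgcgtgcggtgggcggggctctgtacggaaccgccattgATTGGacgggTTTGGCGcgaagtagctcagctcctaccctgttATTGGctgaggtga
Chaf1a: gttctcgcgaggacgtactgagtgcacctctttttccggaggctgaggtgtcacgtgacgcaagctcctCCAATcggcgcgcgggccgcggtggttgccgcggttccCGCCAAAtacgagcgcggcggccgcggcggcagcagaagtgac
Cdc6: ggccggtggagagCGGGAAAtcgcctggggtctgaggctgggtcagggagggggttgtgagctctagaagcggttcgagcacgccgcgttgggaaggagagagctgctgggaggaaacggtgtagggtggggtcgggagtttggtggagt
Rrm2: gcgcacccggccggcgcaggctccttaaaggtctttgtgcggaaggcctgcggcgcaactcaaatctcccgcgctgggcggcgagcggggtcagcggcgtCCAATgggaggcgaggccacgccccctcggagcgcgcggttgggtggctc
Rpa1: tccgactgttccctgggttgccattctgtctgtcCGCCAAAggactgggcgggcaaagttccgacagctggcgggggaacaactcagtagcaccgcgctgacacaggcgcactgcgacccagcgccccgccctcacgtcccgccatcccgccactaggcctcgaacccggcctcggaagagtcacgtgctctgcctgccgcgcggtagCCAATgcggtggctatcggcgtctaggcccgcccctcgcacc

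The Mcm6 stretch held 3 E2F words, of which the first and the second overlapped. The Rrm2 stretch held no E2F word and 1 CCAAT box. The Rpa1 stretch held 1 of each, with a second CCAAT word 42 to 46 bases after the start, although Rpa1 changed least with stimulation. An E2F word lay in 17 of the 31 matched members (54.8%), against 6.70% of all 32851 promoter windows of the same length and 10.3% of the 14857 tested genes with a window. Since some genes have more than 1 window, the share of tested genes is the like comparison for a share of members. CCAAT lay in 20 of 31 members (64.5%), in 37.4% of all windows and in 42.3% of the tested genes with a window. The GC box GGGCGG, a word bound by the SP and KLF family, lay in 23 of 31 members (74.2%), in 35.7% of all windows and in 55.6% of the tested genes with a window. The E-box CACGTG was found in 5 of 31 members (16.1%), in 7.15% of all windows and in 10.2% of the tested genes with a window. The cell cycle homology words TTTGAA and TTCGAA, on either strand, were found in 6 of 31 members (19.4%), in 19.2% of all windows and in 18.4% of the tested genes with a window. These are matches of letters and not measured binding. Among members, the median log2 fold change of KLF2+ cells with stimulation was 2.90 for the 17 with an E2F word and 2.84 for the 14 without.

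Exon reads per library ranged from 2.99 M to 36.6 M, which was 7.96% to 80.3% of their tags, with both extremes among stimulated cells (the lowest in KLF2- replicate 4, the highest in KLF2+ replicate 2). Klf2 itself measured 303 and 379 CPM (reads scaled to a common depth by the TMM method) in unstimulated KLF2+ cells and 41 and 65 CPM in unstimulated KLF2- cells, a log2 fold change of 2.69 ± 0.33 (edgeR adjusted p = 0.00455). With stimulation Klf2 fell in KLF2+ cells to 93.5 and 139 CPM (-1.55, adjusted p = 0.0076) and stood at 46.5 and 75.8 CPM in KLF2- cells. Between stimulated cells its log2 fold change of 0.93 (adjusted p = 0.0236) became -0.27 (adjusted p = 0.475) when scaling factors came from genes of at least 50 CPM. T cell markers were present in every library, with sums of 2357 to 7344 CPM over 8 genes, none of them at 0. Sums of the 15 myeloid markers were 963 and 1683 CPM in unstimulated KLF2+ cells and 46.2 to 96.1 CPM in the other 6 libraries. Lyz2 alone made 705 and 1376 CPM of the sums in unstimulated KLF2+ cells. Reads over 1464 olfactory and vomeronasal receptor genes, genes of chemosensory neurons, gave each library a background density per kilobase of exon. Below, background correction means that this density times gene length was subtracted and that scaling factors came from genes of at least 50 CPM, and the steps are also given singly. That background amounted to 15% of the members' reads in stimulated KLF2- replicate 4, to 1.61% to 5.20% in stimulated KLF2- replicate 3 and the unstimulated libraries, and to 0.188% and 0.0662% in stimulated KLF2+ cells.

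Together the 38 genes took 0.249% and 0.244% of exon reads in the KLF2+ libraries without stimulus, and 0.992% and 0.914% in those with it. In the KLF2- libraries their share was 0.226% and 0.213% without stimulus, and 0.476% (replicate 3) and 0.203% (replicate 4) with it. Both stimulated KLF2+ libraries were therefore above all others, stimulated KLF2- replicate 3 was above the unstimulated libraries, and replicate 4 was below them. In bulk RNA, fewer cells carrying these transcripts and less of them per cell cannot be told apart. On the TPM scale, in which reads are divided by gene length before they are scaled to a common sum, the members summed to 1121 and 1056 in unstimulated and 4150 and 3808 in stimulated KLF2+ cells, and to 1021 and 958 in unstimulated and 2212 and 993 in stimulated KLF2- cells.

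**Figure D1:**
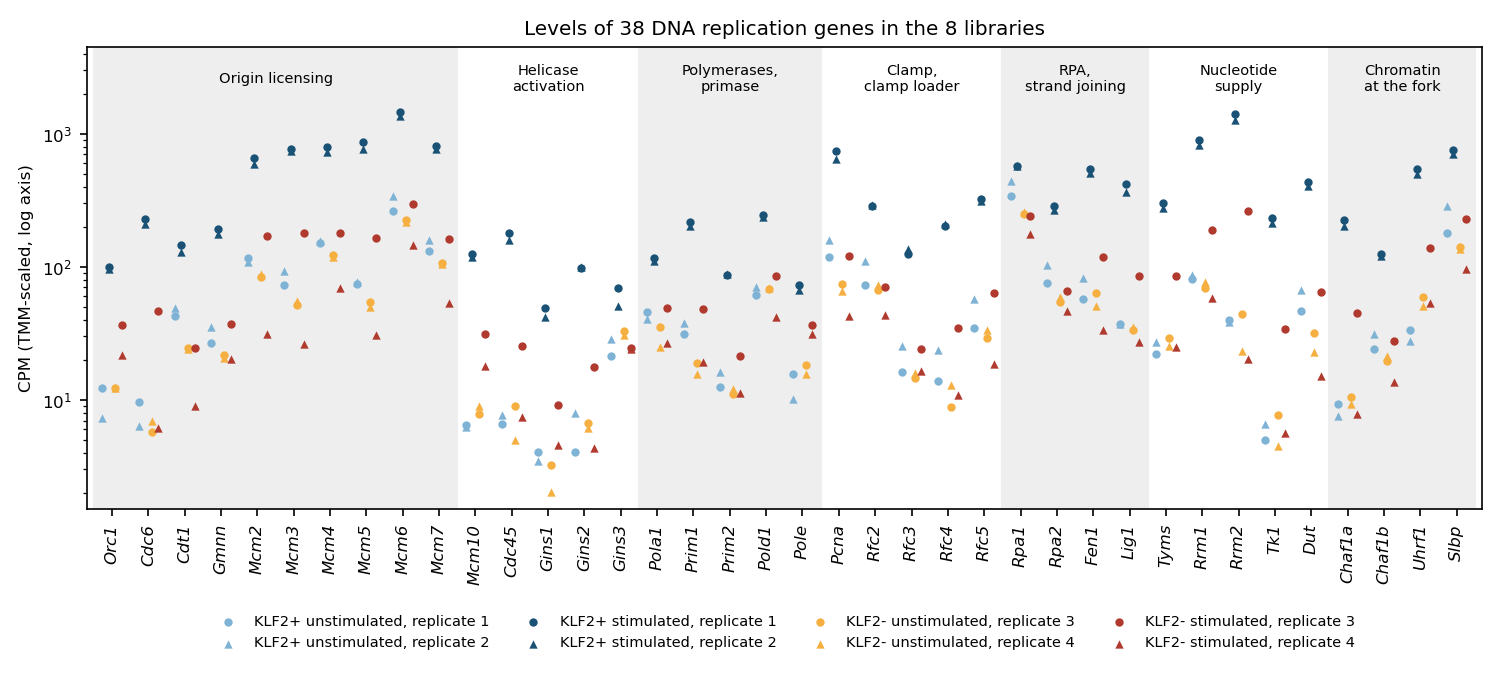
Levels of each of the 38 genes in the 8 libraries, in CPM on a log axis, with genes grouped by role along the horizontal axis; each point is 1 library, and colour gives the group and shape the replicate. The stimulated KLF2+ libraries (dark blue) are the highest 2 points for every gene, and stimulated KLF2- replicate 3 (red circles) mostly lies above replicate 4 (red triangles).

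In KLF2+ cells, stimulation raised nearly the whole set. Higher levels were called for 37 of the 38 members (edgeR, adjusted p under 0.05 over 19146 genes), where 19.7% of all tested genes were called higher, and no member was called lower. The members' median log2 fold change was 2.71 and that of all tested genes was -0.25. For every member, both stimulated libraries lay above both unstimulated ones, though the share of all genes for which this held is not given here. Nucleotide supply and helicase activation had the highest role medians (3.54 and 4.01), and single-strand binding with lagging-strand joining had the lowest (2.26). When scaling factors came from genes of at least 50 CPM, the median of all genes moved to -0.76 and that of the members to 2.23, with 37 members again called (11.2% of all genes were called higher). After background correction 35 members were called, where 13.5% of 15292 genes were, and with the subtraction alone 36 members and 16.9% of genes were. Without unstimulated KLF2+ replicate 1, 28 members were called and 6.96% of 20255 genes, with a member median of 2.56. Myeloid marker sums went down over the same comparison, to 57.4 and 96.1 CPM, with 13 of 15 markers lower and Fcgr1 at 0 in stimulated replicate 1; their part in the result was not tested. The sum of 10 erythroid markers went from 81.8 and 65.1 to 675 and 582 CPM, of which Tfrc, the transferrin receptor that T cells also make, was 665 and 573.

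Of the licensing genes, all 10 rose. Cdc6, which loads the helicase together with CDT1, measured 9.57 and 6.36 CPM in unstimulated KLF2+ libraries and 231 and 210.4 CPM in stimulated ones. This was the largest change of the role, with a log2 fold change of 4.81 ± 0.70 (± SE with n = 2 libraries a group here and below; edgeR adjusted p = 0.00204). Cdt1, its partner, had the smallest, 1.58 ± 0.34 (adjusted p = 0.00916), going from 42.6 and 48.9 to 145 and 129.8 CPM, and was not called after background correction (adjusted p = 0.0711). The geminin gene Gmnn, whose product restrains CDT1, rose from 26.6 and 35.3 to 191 and 177 CPM, and Orc1, the large subunit of the origin recognition complex, from 12.3 and 7.29 to 99.1 and 96 CPM. The ratio of Cdt1 to Gmnn in TPM thus moved from 0.71 and 0.62 without stimulus to 0.34 and 0.32 with it. Both stimulated libraries lay below both unstimulated libraries in that ratio, while each of the genes by itself was higher.

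The 6 genes of the MCM ring rose by log2 fold changes between 2.23 ± 0.33 (Mcm6) and 3.44 ± 0.60 (Mcm5). Mcm6 measured 261 and 342 CPM without stimulus and 1472 and 1359.8 CPM with it, and Mcm5 measured 74.7 and 76.3 and then 875 and 765 CPM. The gene with the higher starting level therefore rose less. Mcm2 went from 116 and 108 to 657 and 593 CPM and Mcm3 from 72.7 and 93.6 to 776 and 749.6. Mcm4 went from 152 and 158 to 799 and 729.8 CPM and Mcm7 from 132 and 159 to 815 and 769. These proteins form 1 ring with a single copy of each, and their transcripts became more alike in level: the highest over the lowest of the 6 in TPM was 2.69 and 3.45 in unstimulated libraries (Mcm6 over Mcm5) and 1.73 and 1.81 in stimulated ones (Mcm7 over Mcm2).

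All 5 genes that turn the loaded ring into an active helicase rose. Cdc45, an integral part of that helicase, went from 6.64 and 7.69 to 180.0 and 159.6 CPM, a log2 fold change of 4.56 ± 0.49 (adjusted p = 0.000595). Mcm10, a firing factor that shares no place in the ring in spite of its name, went from 6.53 and 6.23 to 125 and 118 CPM (4.25 ± 0.29) and had the lowest adjusted p of all members, 0.000151. The GINS genes were unequal. Gins1 rose from 4.05 and 3.45 to 49.3 and 42.2 CPM and Gins2 from 4.05 and 7.95 to 98.4 and 99.5 CPM, log2 fold changes of 3.61 ± 0.42 and 4.01 ± 0.53. Gins3 rose by 1.26 ± 0.24 only, from 21.3 and 28.5 to 68.9 and 51 CPM. On the TPM scale Gins3 exceeded Gins1 2.39 and 3.67 times before stimulation and was 0.63 and 0.54 of it afterwards, so that the order of these subunits was turned round in both libraries. Exons of Gins2 overlap those of Gse1 on the opposite strand over 2758 bases (GENCODE vM21), and since the sources used here do not give the strand setting of the counting, the Gins2 count is uncertain.

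The polymerase and primase genes also all rose, with a median log2 fold change of 2.45. Prim1, the catalytic primase subunit, had the largest log2 fold change, 2.60 ± 0.36, going from 31.3 and 38 to 217 and 203 CPM. Prim2, its partner, gave 2.59 ± 0.30 with levels of 12.6 and 16.3 and then 87.2 and 87.8 CPM. Pola1, the catalytic subunit of polymerase alpha with which primase works, had the smallest, 1.39 ± 0.28 (45.9 and 40.4 to 116 and 110.1 CPM), and was not called after background correction (adjusted p = 0.0592). Pold1 and Pole, the catalytic subunits of polymerases delta and epsilon, rose by 1.88 ± 0.29 and 2.45 ± 0.26. Per length, Pole was the lowest of all 38 members in stimulated KLF2+ cells, at 6.60 and 5.98 TPM, while Pold1 measured 46.0 and 44.6 TPM there.

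Pcna, the gene of the sliding clamp, went from 119 and 159 to 739.9 and 649.5 CPM, a log2 fold change of 2.32 ± 0.41 (adjusted p = 0.00405). Of the clamp loader genes, Rfc4 rose most, by 3.43 ± 0.46 (14 and 23.8 to 202 and 209 CPM), and Rfc2 least, by 1.65 ± 0.27 (73.4 and 111 to 288 and 291 CPM). Rfc3 and Rfc5 lay between them, with 2.63 ± 0.27 and 2.79 ± 0.47. All 5 genes of this role were called, and the unstimulated and stimulated libraries did not overlap for any of them. With 2 libraries a group such a lack of overlap is common for unchanged genes too, and its share over all genes is not given here. Rfc2 shares 952 bases of exon with Lat2 on the opposite strand, Rfc5 shares 499 with Wsb2 and Rfc4 shares 186 with Eif4a2, and these counts are uncertain for the same reason as that of Gins2.

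RPA coats single-stranded DNA, and FEN1 and DNA ligase I trim and seal the pieces of the lagging strand. Lig1 went from 37.1 and 37.4 to 418 and 367 CPM (3.40 ± 0.43, adjusted p = 0.00109) and Fen1 from 57.6 and 83.1 to 541 and 512 CPM (2.90 ± 0.48). Rpa2 rose by 1.62 ± 0.24, from 75.6 and 104 to 286 and 266 CPM. Rpa1 was the 1 member that was not called: it measured 338 and 445 CPM without stimulus and 578 and 573 CPM with it, a log2 fold change of 0.55 ± 0.24 (adjusted p = 0.0864). It was called in 3 of 21 alternative settings, and across them its log2 fold change ran from -0.12 to 0.81. On the TPM scale Rpa1 stood at 134 and 128 before and 123 and 119.8 after stimulation, so the order of the groups differed between the scales. The ratio of Rpa1 to Rpa2 in TPM moved from 2.62 and 2.51 to 1.18 and 1.26.

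Genes of nucleotide supply held the largest changes of the whole set. Tk1, the S phase thymidine kinase, went from 4.95 and 6.63 to 233 and 212 CPM, a log2 fold change of 5.25 ± 0.65 (adjusted p = 0.00103). Rrm2, the small subunit that limits ribonucleotide reductase in S phase, went from 39.9 and 38.8 to 1411 and 1282 CPM (5.10 ± 0.93, adjusted p = 0.00487). Its large partner Rrm1 rose less, by 3.36 ± 0.45, from 81.5 and 87.2 to 903 and 829 CPM. In TPM, Rrm2 was 0.89 and 0.82 of Rrm1 in unstimulated cells and 2.87 and 2.84 times Rrm1 in stimulated cells, and it was then the member of the highest level per length, at 417 and 374 TPM. Tyms, thymidylate synthase, rose by 3.54 ± 0.46 (22.3 and 27.4 to 303 and 278 CPM). Dut, the dUTPase that keeps uracil out of DNA, had the smallest change of the role, 2.89 ± 0.52, from 46.7 and 66.7 to 437 and 406 CPM.

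The 4 genes that act on chromatin behind the fork all rose. Chaf1a, the large subunit of CAF-1, which deposits histones on new DNA, went from 9.34 and 7.55 to 226 and 204 CPM (4.68 ± 0.61, adjusted p = 0.00128). Chaf1b, the middle subunit, rose by 2.15 ± 0.30, and the TPM ratio of Chaf1a to Chaf1b went from 0.22 and 0.14 to 1.05 and 0.97. Uhrf1, which brings the maintenance DNA methyltransferase to hemimethylated sites, went from 33.8 and 27.8 to 542 and 499 CPM (4.08 ± 0.40). Slbp, the histone mRNA stem-loop binding protein, changed least, by 1.64 ± 0.38 (179 and 286 to 755 and 700.1 CPM). Chaf1a exons overlap those of Ubxn6 on the opposite strand over 2542 bases and Fen1 exons those of the antisense gene Gm10143 over 1909, so both counts carry the same doubt about strand. Shorter overlaps on the opposite strand were found for Slbp (380 bases), Lig1 and Mcm7 (247 bases each, with a further gene for Mcm7), Orc1 (179), Cdc45 (164), Tk1 (83) and Pole (78).

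**Figure D2:**
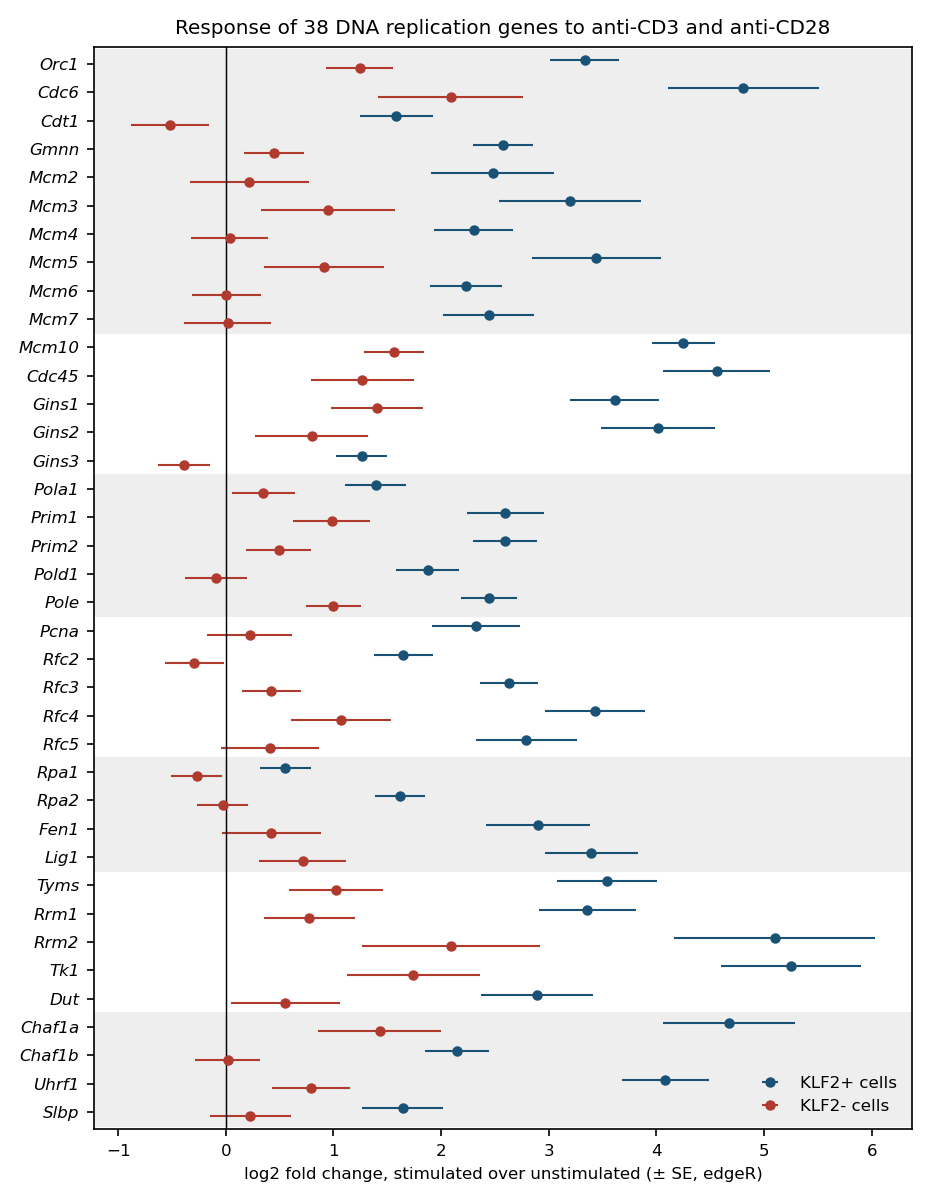
Log2 fold change of stimulated over unstimulated cells for each gene (horizontal axis), with the SE from edgeR as bars, in KLF2+ cells (blue) and KLF2- cells (red); shading separates the roles. In KLF2+ cells the values run from 0.55 for Rpa1 to 5.25 for Tk1, and in KLF2- cells from -0.52 for Cdt1 to 2.09 for Rrm2.

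By their medians, members with the largest responses started lower than those with the smallest, but their ranges overlapped. The 8 members with a log2 fold change of at least 4 (Cdc6, Mcm10, Cdc45, Gins2, Rrm2, Tk1, Chaf1a and Uhrf1) had a median unstimulated level of 3.89 TPM in KLF2+ cells, and the 8 under 2 (Cdt1, Gins3, Pola1, Pold1, Rfc2, Rpa1, Rpa2 and Slbp) had 36.4 TPM. In the unstimulated KLF2- libraries, which took no part in that fold change, the same groups of genes had medians of 5.12 and 34.6 TPM. Their ranges were 1.74 to 18.8 TPM (highest for Rrm2) and 8.52 to 131 TPM in unstimulated KLF2+ cells. In unstimulated KLF2- cells they were 1.72 to 20.6 TPM and 7.48 to 110 TPM. Pole, at 1.96 TPM in unstimulated KLF2+ cells, was in neither group of genes. Across the 38 genes, the log2 unstimulated KLF2- TPM and the KLF2+ fold change had a Pearson r of -0.62 and a Spearman rho of -0.57. These are descriptions across genes measured in the same libraries, and genes are not independent replicates.

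Outside the 38, a further 53 replication genes were examined, among them the other origin recognition, polymerase and firing genes. Of these, 48 were called higher in KLF2+ cells with stimulation (19.7% of all genes were), 1 was called lower, and the median log2 fold change was 1.91. After background correction 39 were higher (13.5% of all genes were) and 1 was lower. Those that rose included Dscc1 of an alternative clamp loader (3.14 ± 0.31), Esco2, a cohesin acetyltransferase (4.83 ± 0.49), Ticrr, a firing factor (2.85 ± 0.30), Orc6 (2.74 ± 0.29) and Clspn, the fork checkpoint mediator claspin (3.12 ± 0.34). The gene called lower was Rrm2b, the p53-inducible small subunit of ribonucleotide reductase. Its level was 46.8 and 58.9 CPM without stimulus and 27.5 and 28.2 CPM with it, a log2 fold change of -0.93 ± 0.21 (adjusted p = 0.0107), so that the paralogues Rrm2 and Rrm2b changed in opposite directions. Those not called were Orc5 (0.41 ± 0.23), Pole4 (0.80 ± 0.30), Chtf8 (0.38 ± 0.25) and Samhd1, which breaks down deoxynucleotides (0.41 ± 0.27).

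In KLF2- cells, no member was called in either direction with stimulation, and neither was any other gene (0% of 19146), while 12 members and 2802 of all genes had an unadjusted p under 0.05 (edgeR) and DESeq2 called 2 members, Orc1 and Mcm10, among 67 genes (0.275%). The replicates differed. In replicate 3, 34 of 38 members lay above both unstimulated KLF2- libraries, with a median log2 ratio to their mean of 1.08. In replicate 4, 25 members lay below both unstimulated libraries and 6 above them, with a median of -0.37. These positions are in CPM, and the like shares over all genes are not given here. In TPM the members' median in stimulated replicate 4 was 17.4, between the 18.2 and 15.8 of the unstimulated libraries, and in replicate 3 it was 44.5. Gmnn in replicate 4 was below both unstimulated libraries in CPM but above both in TPM (40.1 against 30.0 and 27.8). In CPM, the level in replicate 3 was between 1.02 times (Gins3) and 12.95 times (Rrm2) that in replicate 4.

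**Figure D3:**
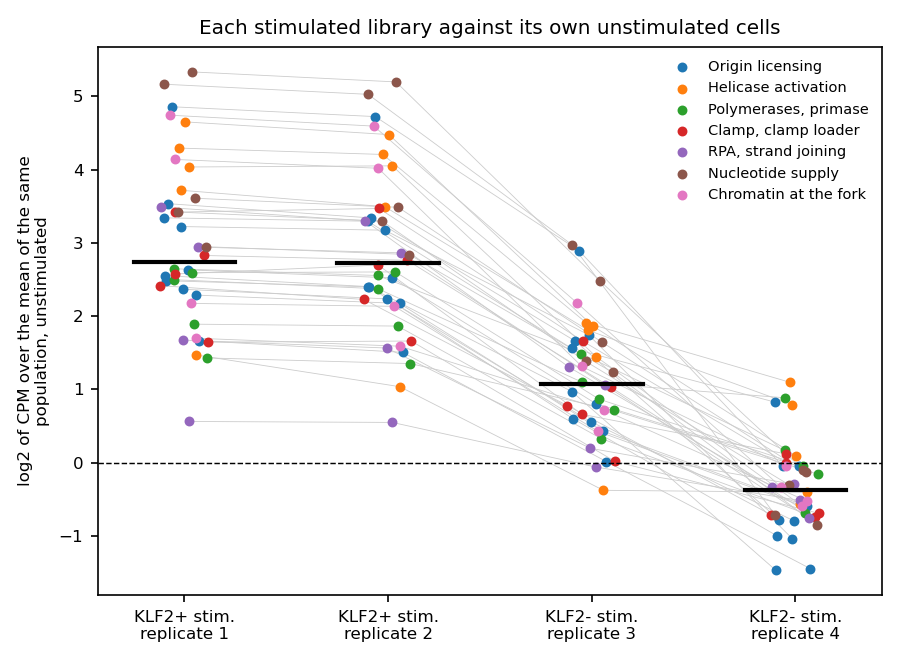
Log2 of each gene's CPM in 1 stimulated library over the mean of the same population's unstimulated libraries (vertical axis), for the 4 stimulated libraries; points are genes coloured by role, grey lines join the same gene and black bars are medians. The medians are 2.74 and 2.73 in the KLF2+ libraries, 1.08 in KLF2- replicate 3 and -0.37 in KLF2- replicate 4.

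Rrm2 showed the widest gap. It measured 43.9 and 23.4 CPM in the unstimulated KLF2- libraries, 265 CPM in stimulated replicate 3 and 20.5 CPM in stimulated replicate 4, so that the stimulated group spanned the unstimulated one. Tk1 measured 7.67 and 4.47 CPM without stimulus and 34 and 5.66 CPM with it, Cdc6 5.69 and 6.90 and then 46.8 and 6.10, and Chaf1a 10.5 and 9.34 and then 44.7 and 7.84. The helicase genes Mcm3 (51.8 and 55.4 CPM, then 179.7 and 26.1), Mcm5 (54.9 and 49.7, then 165 and 30.5) and Mcm2 (84.5 and 89, then 169.8 and 31.4) were above both unstimulated libraries in replicate 3 and below both unstimulated libraries in replicate 4. In the TPM ratio of Rrm2 to Rrm1 the same split was seen, with 1.17 and 0.56 without stimulus, 2.57 in replicate 3 and 0.63 in replicate 4.

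A few members lay on the same side of the unstimulated libraries in both stimulated KLF2- libraries. Orc1 measured 12.3 and 12.3 CPM without stimulus and 36.3 and 21.8 with it, with a log2 fold change of 1.24 ± 0.31 (adjusted p = 0.268). Mcm10 measured 7.79 and 8.93 and then 31.3 and 17.9 CPM (1.56 ± 0.28, adjusted p = 0.268), and Pole 18.4 and 15.6 and then 36.4 and 31.4 CPM (1.00 ± 0.26, adjusted p = 0.268). For these genes the groups did not overlap, as for 8 of the 38 members. With 2 libraries a group, a lack of overlap is common for unchanged genes too, and its share over all genes is not given here. Gins3 went the other way in both libraries, from 32.8 and 30.7 to 24.4 and 24 CPM (-0.39 ± 0.24, edgeR adjusted p = 0.435). Rpa1 also lay below both unstimulated libraries in CPM, with log2 ratios to their mean of -0.06 in replicate 3 and -0.52 in replicate 4. In TPM, however, Rpa1 in stimulated replicate 4 was at 111.2, against 109.9 and 110.9 without stimulus. The background of Pole was 43.6% of its reads in stimulated replicate 4 and 24.3% in replicate 3. In replicate 4, 29 of 38 members had a background above 10% of their reads, 3 (Cdc45, Chaf1a and Cdc6) had one above 50%, and Cdc6 had fewer reads than its background estimate.

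Without stimulated KLF2- replicate 4, 13 members were called higher, where 0.522% of 19530 genes were. They were Tk1, Cdc6, Mcm10, Mcm3, Lig1, Chaf1a, Tyms, Prim1, Cdc45, Mcm5, Rrm1, Rrm2 and Uhrf1. Without replicate 3, 1 member was called, lower (Mcm2, log2 fold change -1.51, adjusted p = 0.0455), where 0.268% of 20130 genes were called lower. With background correction and without replicate 4 together, 28 members were higher and 1.93% of 15743 genes were. With the replicate number as a block, 11 members were called higher, where 1.62% of genes were. Across the 38 genes, the ratio in replicate 3 and the fold change of KLF2+ cells had a Pearson r of 0.93 and a Spearman rho of 0.94. For replicate 4 these were 0.31 and 0.32. The ratios and the fold change share no library, but they share the scaling and the filter. Genes are not independent replicates, and the like values over all genes are not given here. Replicate 3 also had 4.53 M exon reads and replicate 4 had 2.99 M, with background at 3.61% and 15% of member reads; the part of depth and background in the difference was not tested.

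The subunit ratios that moved in KLF2+ cells can be read in the same libraries. For the MCM ring, the highest over the lowest TPM was 3.16 and 3.37 in unstimulated KLF2- libraries, 1.39 in stimulated replicate 3 and 3.83 in stimulated replicate 4. Chaf1a over Chaf1b was 0.31 and 0.25, then 0.93 in replicate 3 and 0.32 in replicate 4. After subtraction of the background these values were 0.23 and 0.19, then 0.92 in replicate 3 and 0.08 in replicate 4, so that replicate 4 went from above both unstimulated libraries to below them. Cdt1 over Gmnn was 0.50 and 0.52 without stimulus and 0.29 and 0.19 with it, so here both stimulated libraries lay below both unstimulated ones; with the background subtracted the stimulated values were 0.27 and 0.11. Rpa1 over Rpa2 was 2.66 and 2.53 without stimulus and 2.17 and 2.22 with it, against 1.18 and 1.26 in stimulated KLF2+ cells.

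Without stimulus, no member was called between KLF2+ and KLF2- cells, where 2.32% of all genes were called in either direction. At an unadjusted p under 0.05 there were 6 members (edgeR). The 2.32% is for adjusted p and is not the like share for that count, which is not given here. DESeq2 called 1 member, Prim1, where it called 4.58% of all genes. The median log2 fold change, KLF2+ over KLF2-, was 0.38 for the members and -0.11 for all genes, and with factors from genes of at least 50 CPM these were 0.14 and -0.33. Prim1 had the smallest p, with 31.3 and 38 CPM in KLF2+ and 18.9 and 15.6 CPM in KLF2- cells (1.01 ± 0.35, adjusted p = 0.18). Pcna measured 119 and 159 against 74 and 65.9 CPM (0.99 ± 0.39, adjusted p = 0.22), and Cdt1 42.6 and 48.9 against 24.6 and 24.1 CPM (0.91 ± 0.35, adjusted p = 0.207). Uhrf1 lay the other way, with 33.8 and 27.8 CPM in KLF2+ and 59.8 and 51.1 CPM in KLF2- cells (-0.85 ± 0.37, adjusted p = 0.248). The groups did not overlap for any of these genes, which with 2 libraries a group is common for unchanged genes too. Without either of the stimulated KLF2- libraries, 5 members were called, Cdt1, Prim1, Pcna and Dut higher and Uhrf1 lower. Those libraries are not part of the comparison, but enter through the estimate of spread, the filter on low counts and the scaling. The share of all genes called was then 3.55% of 20130 without replicate 3 and 3.93% of 19530 without replicate 4. The sum of the myeloid markers differed over the same comparison (963 and 1683 CPM against 46.6 and 79.3). Of it, Lyz2 made 705 and 1376 CPM against 3.25 and 3.45, and 4 of the 15 markers were called higher. The part of the myeloid markers in the members' values was not tested.

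After stimulation, all 38 members were called higher in KLF2+ than in KLF2- cells, where 35.5% of all genes were called higher. The median log2 fold change was 2.67 for the members and -0.19 for all genes. Both KLF2+ libraries lay above both KLF2- libraries for each of the 38, again without a share over all genes to set beside it. The difference was largest for Tk1 (233 and 212 CPM against 34 and 5.66; 3.46 ± 0.60, adjusted p = 0.000892), Dut (437 and 406 against 64.3 and 15.2 CPM; 3.39 ± 0.53) and Cdc45 (180.0 and 159.6 against 25.4 and 7.41 CPM; 3.35 ± 0.47). It was smallest for Pole (72.9 and 66.9 against 36.4 and 31.4 CPM; 1.04 ± 0.25, adjusted p = 0.00452), Gins3 (1.31 ± 0.24) and Rpa1 (1.45 ± 0.24). These libraries differed most in depth and background, and the scaling mattered here: with factors from genes of at least 50 CPM the median of all genes moved to -1.37 and that of the members to 1.53, with 33 members called and 12.1% of all genes called higher. On that scale Pole had a log2 fold change of -0.13, and Gins3 and Pole were below 0 in the limma fits of log2 TPM.

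After background correction 29 members were called higher in stimulated KLF2+ cells, where 16.8% of 15292 genes were, with a member median of 1.55. The median was thus close to the 1.53 that the scaling gave by itself. With the background subtracted and the scaling left as it was, the median was 2.04, and 37 members and 30.1% of genes were called higher. With both steps together, the members no longer called were Orc1, Cdc6, Mcm2, Gins3, Pola1, Pole, Rpa1, Rrm2 and Chaf1a. For Rrm2 the corrected log2 fold change was 2.13 (adjusted p = 0.0722) and for Rpa1 it was 0.22 (adjusted p = 0.133). All 8 T cell markers were also higher in stimulated KLF2+ cells, with a median log2 fold change of 1.62. Of 10 B cell markers 4 were higher and 2 lower in the same comparison. Among them, Cd79a, of the B cell receptor, measured 34.2 and 48.9 CPM against 0.66 and 4.36, and the adaptor gene Blnk 27.2 and 37.1 CPM against 0.82 and 1.74. Others lay the other way, such as Ebf1 (3.93 and 3.27 CPM against 23.4 and 28.3) and Cr2 (3.32 and 1.44 CPM against 18.5 and 27.7). The summed B cell markers were 166 and 222 CPM in stimulated KLF2+ and 88.5 and 144 CPM in stimulated KLF2- cells, with none at 0. Of the 15 myeloid markers 2 were higher and 6 lower. The part of these cells in the members' values was not tested. With factors from genes of at least 50 CPM, 4 T cell markers were higher and 1 lower, with a median of 0.45, beside 1.53 for the members. On that scale 4 B cell markers were higher and 5 lower, with a median of -0.81. With 2 times the background subtracted, 21 members and 18.4% of 13411 genes were called higher.

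**Figure D4:**
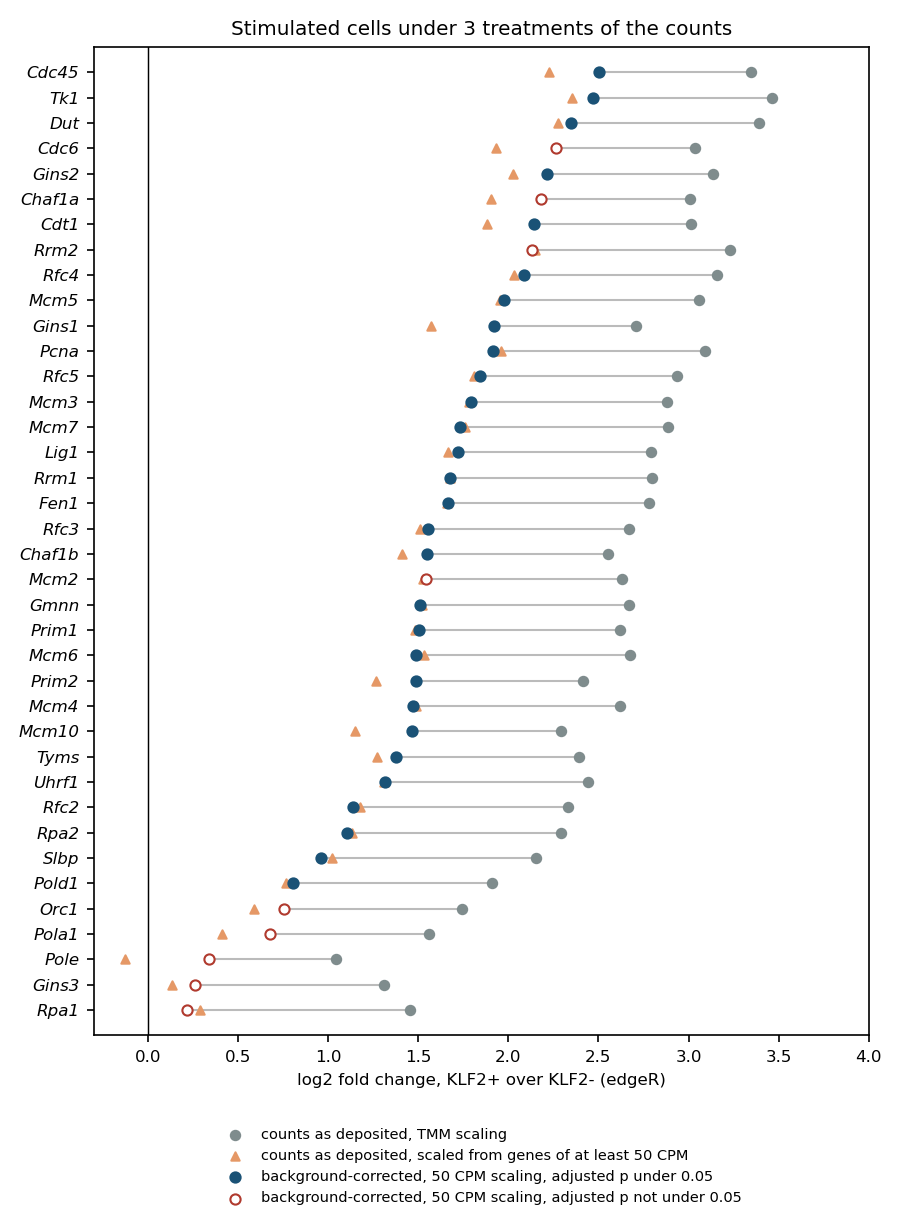
Log2 fold change of stimulated KLF2+ over stimulated KLF2- cells (horizontal axis) for each gene, from counts as deposited with TMM scaling (grey) or scaled on genes of 50 CPM or more (orange triangles), and from background-corrected counts with the latter scaling (filled blue where the adjusted p is under 0.05, open red where it is not). The grey values are the highest for every gene, the orange triangles have a median of 1.53 and the corrected values one of 1.55, and 29 of the corrected values are called.

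The responses of the populations were compared directly by the interaction of KLF2 status and stimulus. The response was larger in KLF2+ cells for 33 of 38 members, where 20.3% of all genes were called in that direction, with a median difference of 2.25 on the log2 scale for the members and -0.09 for all genes. Tk1 (3.51 ± 0.85), Cdc45 (3.29 ± 0.66), Uhrf1 (3.29 ± 0.52), Chaf1a (3.25 ± 0.80) and Gins2 (3.22 ± 0.72) had the largest differences among those called. Mcm10 had the smallest adjusted p, 0.00941 (2.69 ± 0.39). The members not called were Mcm3 (2.25 ± 0.88, adjusted p = 0.0663), Rrm2 (3.01 ± 1.14, 0.0623), Slbp (1.41 ± 0.53, 0.0586), Pola1 (1.04 ± 0.40, 0.0647) and Rpa1 (0.82 ± 0.34, 0.0753). Rrm2 thus had a difference as large as that of other members but a wider error, its stimulated KLF2- libraries being the farthest apart of the 38.

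The number of calls for this difference depended on the libraries and on the scaling. Scaling from genes of at least 50 CPM left 19 members called, where 4.31% of genes were called higher, with the median of all genes at -1.04 and that of the members at 1.37. Subtraction of the background alone left 14 members, where 8.75% of 15292 genes were, with a member median of 1.75. Both steps together left 7 members, Gmnn, Mcm6, Mcm10, Rfc2, Rfc3, Rpa2 and Uhrf1, where 3.83% of genes were, with a median of 1.43. With 2 times the background subtracted none was, where 1.36% of genes were (edgeR; 4059 of 13411 genes had an unadjusted p under 0.05). Without unstimulated KLF2- replicate 3, 1 member was called, where 0.331% of 20230 genes were, and without unstimulated KLF2- replicate 4 none was, where 0.316% of 20228 genes were (edgeR; 6876 had an unadjusted p under 0.05). Without unstimulated KLF2+ replicate 1, 5 members and 1.64% of genes were. Calls thus became few over all genes in these fits, while the members' median difference was 2.28, 2.26 and 2.06, close to the 2.25 with all libraries. The stimulated KLF2- libraries moved the size: the median was 3.18 without replicate 3 and 1.78 without replicate 4. The direction was kept by all 38 members in each fit that left out 1 library. With background correction and without stimulated KLF2- replicate 4 together, 16 members were called, where 3.49% of 15743 genes were, with a median difference of 0.98.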

How the data were processed

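RNA from 8 libraries of sorted mouse CD4 T cells was analysed. The authors' exon counts were made by HOMER on mm10 RefSeq genes, per the file headers, and are estimated counts in steps of 0.5. A second deposited table gives TPM. The submitters' processing notes name STAR 2.7.9, HOMER 4.11, SAMtools and DESeq2, with builds mm10 and GRCm38; the strand setting is not given in the sources used here.

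Estimated counts were rounded and fitted in edgeR 4.0.16 (R 4.3.3), with all 8 libraries, TMM scaling, filterByExpr (19146 genes), 1 coefficient per group and 4 residual degrees of freedom. The quasi-likelihood F test gave 5 contrasts. P-values were adjusted over all tested genes by the Benjamini-Hochberg method and genes under 0.05 were called. The fitting code was also run on simulated counts with a common dispersion and no added background. That run cannot show how the fits behave under the differences in background and scaling seen here. Background was the read density over 1464 receptor genes (1683.9 kb of exons) times gene length, subtracted with a floor of 0, and scaling then came from genes of at least 50 CPM; each step was also run alone. Alternatives also used DESeq2 1.42.0 and limma 3.58.1 on log2(TPM + 1) and log2(TPM + 0.1), other filters, a replicate block and libraries left out.

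The members, the 53 other replication genes and the marker lists were chosen with earlier results of these data known. Values are given in full for the largest and smallest KLF2+ response of each role, for members against their role or called among 5 or fewer, and, of the other genes, for those of smallest p (1 of the 6 is not reported here) and those lower or not called. Further members were described after their values were seen. Subunit ratios and promoter words were also chosen then.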

Additional observations from a re-analysis of the deposited data

Results flagged for a closer look

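The responses of KLF2+ and KLF2- cells differed by the interaction test of edgeR in 33 of the 38 genes, each with an adjusted p under 0.05 and a larger response in KLF2+ cells. The values given are differences of log2 fold changes, KLF2+ minus KLF2-. Of the licensing genes, the difference was 2.09 for Orc1, 2.72 for Cdc6, 2.10 for Cdt1, 2.12 for Gmnn, 2.26 for Mcm2, 2.26 for Mcm4, 2.53 for Mcm5, 2.22 for Mcm6 and 2.42 for Mcm7. Of the helicase activation genes, the difference was 2.69 for Mcm10, 3.29 for Cdc45, 2.21 for Gins1, 3.22 for Gins2 and 1.65 for Gins3. Of the polymerase and primase genes, the difference was 1.61 for Prim1, 2.10 for Prim2, 1.97 for Pold1 and 1.45 for Pole. For the clamp and its loader, the difference was 2.10 for Pcna, 1.94 for Rfc2, 2.21 for Rfc3, 2.36 for Rfc4 and 2.38 for Rfc5. For strand binding and joining, the difference was 1.65 for Rpa2, 2.48 for Fen1 and 2.68 for Lig1. In nucleotide supply, the difference was 2.52 for Tyms, 2.58 for Rrm1, 3.51 for Tk1 and 2.34 for Dut. For chromatin at the fork, the difference was 3.25 for Chaf1a, 2.13 for Chaf1b and 3.29 for Uhrf1. In KLF2+ cells both stimulated libraries lay above both unstimulated libraries for every one of these genes, and in KLF2- cells no gene passed the test. These genes had all been called higher in KLF2+ cells, so their separation there adds nothing to the calls. The share of all genes with such a separation is not given here. After background correction scaled on genes of 50 CPM or more, 7 of the 33 were called; with that scaling alone 19 members were, and with the subtraction alone 14. Without unstimulated KLF2- replicate 4 none was called, while calls over all genes fell from 6855 to 70.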

How the results depend on the processing

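Calls of members kept their direction under nearly all settings. Among member values called with or without the alternative, those that turned were Mcm2 in KLF2- cells without stimulated KLF2- replicate 3 (-1.51, and 0.96 without replicate 4), Gins3 in stimulated cells with limma (-0.14 and -0.15), Pole there with scaling by genes of 50 CPM or more (-0.13) and limma (-0.34 and -0.39), and Cdc6 in the difference of responses with 2 times the background (-4.39); the cause was not tested. Values called in neither fit also turned, such as that of Rpa1 in KLF2+ cells (-0.12 to 0.81). Leaving out 1 library at a time gave 28 to 38 members called in KLF2+ cells (2097 to 8971 of all genes), 0 to 13 in KLF2- cells (0 to 107), 0 to 5 between unstimulated cells (33 to 1692), 38 in each case between stimulated cells (11690 to 15352) and 0 to 38 for the difference of responses (70 to 9581).

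Calls over all genes in KLF2+ cells were 7096, and 4380 with background correction, 3088 with 2 times the background and 4446 with limma on log2(TPM + 1); the split was 3771 higher and 3325 lower, and 2144 and 6111 scaled on genes of 50 CPM or more. In KLF2- cells DESeq2 called 2 members and 67 genes, the fit without a filter 2 genes, and limma 8 and 11 genes. Between unstimulated cells DESeq2 called 1 member and 1117 genes, limma on log2(TPM + 1) 754 genes, and the 4 libraries alone 3 members and 828 genes. Between stimulated cells 14396 genes were called, 8329 with background correction and 5986 with 2 times the background (21 members; both use the 50 CPM scaling); the split was 6799 higher and 7597 lower, and 2315 and 11182 with the 50 CPM scaling. For the difference of responses 33 members and 6855 genes were called, with 19 members under the 50 CPM scaling (where the split of all genes went from 3890 higher and 2965 lower to 826 and 5756), 7 members and 1793 genes with background correction, 0 and 319 with 2 times the background, and 17 members under each limma fit (4291 genes with log2(TPM + 1)). Subtraction of the background without that scaling, added after seeing the data, gave 4414 genes in KLF2+ cells, 8974 between stimulated cells, and 14 members and 2245 genes for the difference. A further added setting, background correction without stimulated KLF2- replicate 4, gave 28 members and 420 genes in KLF2- cells, 5 and 1500 between unstimulated cells, 6936 genes between stimulated cells, and 16 and 1157 for the difference.

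The labels do not say that equal replicate numbers mark a pair. Deviations from group means of same-numbered libraries correlated at 0.63 in KLF2+ cells and 0.24 in KLF2- cells over 10395 genes, with only 2 pairs each. With the replicate number as a block, 37 members and 10851 genes were called in KLF2+ cells, 11 and 770 in KLF2- cells, and 37 and 10857 for the difference. KLF2+ and KLF2- libraries share no number, so no paired analysis was possible between them. Exon reads were fewest in stimulated KLF2- replicate 4, where the lowest member (Gins2) had 19.5 reads. In unstimulated KLF2- replicate 4 the lowest (Gins1) had 20. The parts of depth and background in these values were not tested.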
